A study of Mus musculus with 8 samples.

Results

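The globin genes were followed in red cell precursors and epithelial cells that a laser had cut from sections of mouse yolk sac. Members were all probe sets annotated, alone or jointly, to the embryonic globins Hba-x, Hbb-bh1 and Hbb-y, the adult globins Hba-a1, Hba-a2, Hbb-b1, Hbb-b2, Hbb-bt and Hbb-bs, and the chaperone Ahsp. This gave 15 of the 22626 probe sets on the array that are not controls. Of the 10 genes, 9 had at least 1 probe set and 6 had one of their own; none was annotated to Ahsp, which is therefore not analysed here. The annotation ties 11 probe sets to 1 gene and 4 to several near-identical genes. Those with names ending in _x_at are of a kind that can also bind related transcripts. They include bright probe sets of adult alpha globin, Hbb-bh1 and Hbb-y.

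The captures came from FVB/N embryos at embryonic day 9.5, untreated and not genetically altered as far as the labels say. The 2 groups were 4 erythroid captures (primitive erythroid precursors) and 4 epithelial captures, which the submitters used as the non-erythroid control. An erythroid and an epithelial capture from the same slides formed a pair, and each pair pooled 2 to 4 yolk sacs of 2 litters, so a value is no single embryo's. Each of the 8 RNA samples, 10 to 39 ng, was amplified in a 2-cycle protocol and measured on 1 Affymetrix array of the design Mouse Genome 430A 2.0.

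Hemoglobin is a tetramer of alpha-like and beta-like globin chains, each holding a heme. The first red cells of the mouse embryo arise in the yolk sac and make embryonic chains, zeta from Hba-x and epsilon-y and beta-H1 from Hbb-y and Hbb-bh1, and they make adult alpha chains beside zeta. Adult beta chains belong mainly to the definitive red cells that follow. The adult beta genes go by different names in different strains: Hbb-bt and Hbb-bs in strains such as C57BL/6, Hbb-b1 and Hbb-b2 in strains that carry the other common arrangement of the locus. The labels do not say which arrangement these mice carry.

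The stretches just before the transcription start of these genes are shown because short elements read by transcription factors can lie there. Windows were found for 6 of the 10 genes in RefSeq (build GRCm38.p6), and the 120 bases before the start are given, 5′ to 3′ on the strand of the gene. They lie at chr11:32276480-32276599 (Hba-x, plus strand), chr11:32283552-32283671 (Hba-a1, plus strand), chr7:103853208-103853327 (Hbb-y, minus strand), chr7:103827929-103828048 (Hbb-bs, minus strand) and chr7:103813924-103814043 (Hbb-bt, minus strand). Capitals mark each match, on either strand, to CACCC (the core read by Kruppel-like factors), to CCAAT, to the sequence GATAA (read by GATA factors), and to TATAA or ATAAA, the last 2 of which can overlap.
Hba-x: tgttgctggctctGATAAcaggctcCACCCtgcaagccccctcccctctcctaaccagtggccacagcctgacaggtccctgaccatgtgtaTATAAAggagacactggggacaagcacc
Hba-a1: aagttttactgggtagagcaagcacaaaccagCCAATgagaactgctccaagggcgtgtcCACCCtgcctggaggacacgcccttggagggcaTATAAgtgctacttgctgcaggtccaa
Hbb-y: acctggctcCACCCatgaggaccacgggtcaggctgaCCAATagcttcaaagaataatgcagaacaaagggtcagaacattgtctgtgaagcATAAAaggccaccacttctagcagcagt
Hbb-bs: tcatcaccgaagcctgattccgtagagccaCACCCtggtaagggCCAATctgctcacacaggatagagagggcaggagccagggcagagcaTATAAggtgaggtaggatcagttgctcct
Hbb-bt: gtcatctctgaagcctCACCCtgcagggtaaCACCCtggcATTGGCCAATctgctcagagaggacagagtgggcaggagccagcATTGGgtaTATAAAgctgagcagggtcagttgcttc
CACCC was found in 6 of 6 globin windows and in 31.7% of all 32851 RefSeq windows of the same length. CCAAT was in 5 of 6 (21.3% of all windows), TATAA in 5 of 6 (11.8%), ATAAA in 3 of 6 (20.2%) and GATAA in 1 of 6, that of Hba-x (10.5%). Hbb-y holds ATAAA but no TATAA, and Hba-x holds no CCAAT within these bases. The windows of Hba-a1 and Hba-a2, 300 bases each, share 1 unbroken identical stretch of 297 bases. A match is a string of letters in this window and does not show that a factor binds there.

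All members were read from the deposited signal, a linear intensity per probe set. Of the 15 probe sets, 11 lay above the background level of the array on all 8 arrays, and these 11 were among its brightest features (a background level is the 95th percentile of 117 probe sets for receptors of smell and taste, hair proteins and defensins). Between 7 and 9 members stood among the 100 brightest probe sets of each erythroid array, and 4 or 5 on each epithelial array. Hbb-bh1 held the first rank on the epithelial array of pair 2 (37646) and ranks 1 to 7 on all 8 arrays in its brightest probe set. The rank of a probe set depends on its own probes as well as on its transcript, so ranks compare a probe set with itself between arrays.

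**Figure D1:**
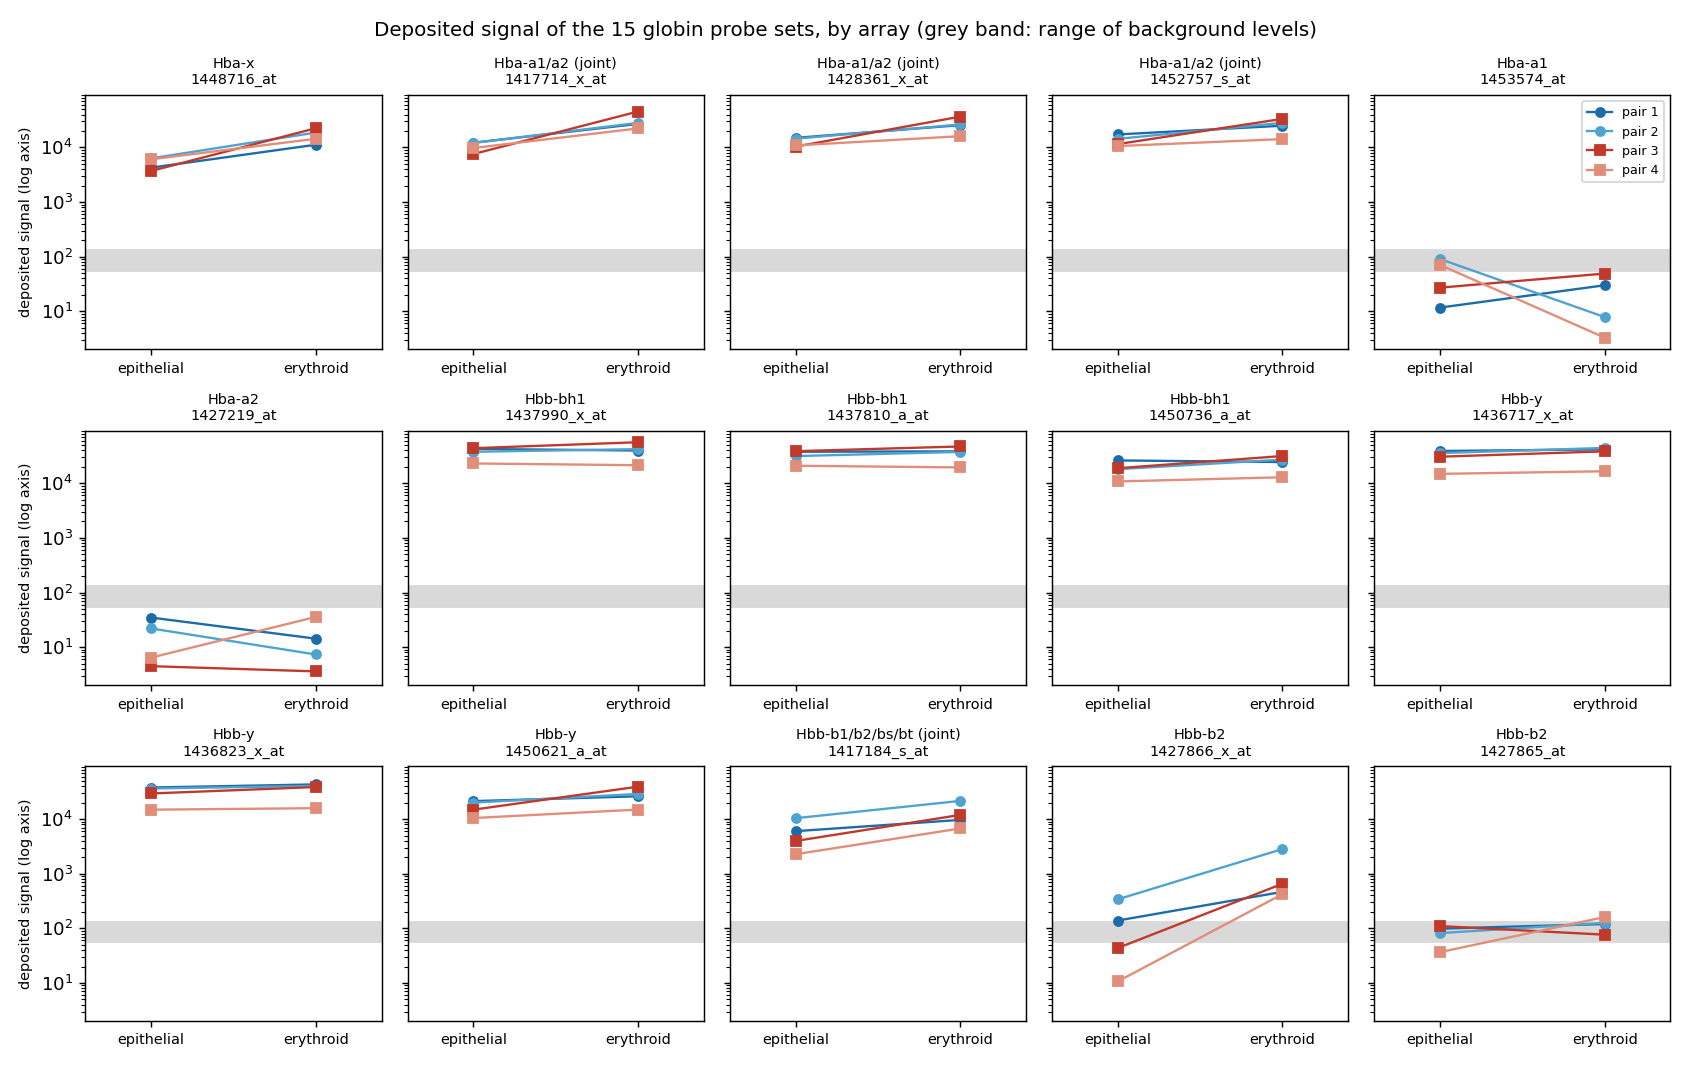
Deposited signal (log axis) of each of the 15 globin probe sets in the epithelial and the erythroid capture of each pair; each line is 1 pair, and the grey band spans the background levels of the 8 arrays. Lines rise in all 4 pairs for 9 probe sets, and 18.9% of all probe sets tested were higher in 4 of 4 pairs. Among the 9 are Hba-x, the 3 joint probe sets of Hba-a1 and Hba-a2 and the joint adult beta probe set. The others are Hbb-b2 1427866_x_at and the 3 probe sets of Hbb-y. Lines run nearly level for most probe sets of Hbb-bh1 and Hbb-y, in the latter with a small rise.

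The comparison asked how much more globin signal red cell precursors gave than the epithelium beside them. Differences below are erythroid minus epithelial on the log2(value + 8.14) scale after quantile normalisation, with the standard error (SE) of a limma fit over 4 pairs and a p adjusted by Benjamini-Hochberg over all 11449 probe sets tested. Tests covered probe sets at or above the median of the array on 4 or more of the 8 arrays, 13 of the 15 members among them. Of these 13, 7 were higher in the erythroid captures at an adjusted p under 0.05, where 6.19% of all probe sets tested were, and 0 were lower, where 7.69% of all were. The 7 comprised Hba-x, the 3 joint probe sets of the adult alpha genes, the joint probe set of the adult beta genes, 1 of 2 for Hbb-b2 and 1 of 3 for Hbb-y. The median difference was 0.54 over the 13 members tested and 0.02 over all probe sets tested. With the deposited scaling, in place of quantile normalisation, 7 were again higher, the same 7, and 6.73% of all probe sets were; 0 members were lower, against 7.4% of all. With arrays centred on their medians 4 were, with no variance trend 3, and without the pair term 4. In the deposited signal, 9 of the 13 members were higher in the erythroid capture in 4 of 4 pairs, where 18.9% of all probe sets tested were. After quantile normalisation 7 members were higher in 4 of 4 pairs, where 18.5% of all were.

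Hba-x, which encodes the embryonic alpha-like chain zeta, was measured by 1 probe set. Its deposited signal in the erythroid captures of pairs 1 to 4 was 11206, 18715, 22480 and 14405. In the epithelial captures of the same pairs it was 4263, 6307, 3707 and 6065. All 4 erythroid values lay above all 4 epithelial values, as they did for 4 of the 13 members and 6.0% of all probe sets tested. Within the pairs, the erythroid signal was 2.63, 2.97, 6.06 and 2.38 times the epithelial signal, largest in pair 3. The log2 difference was 1.66 ± 0.16 (SE, n = 4 pairs; limma adjusted p = 0.00102). It stayed between 1.34 and 1.98 and past the threshold in 15 of 15 alternatives, and was 1.70 ± 0.20 with the deposited scaling.

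Adult alpha globin, which pairs with embryonic beta-like chains in primitive red cells, was measured by 3 joint probe sets that cannot tell Hba-a1 from Hba-a2. The probe set 1417714_x_at read 26947, 28148, 45418 and 22282 in erythroid captures 1 to 4. It read 12194, 12077, 7568 and 9749 in the epithelial captures. The groups were apart, and the log2 difference was 1.42 ± 0.18 (SE, n = 4 pairs; limma adjusted p = 0.00139), called in 15 of 15 alternatives.

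The other 2 joint probe sets rose less. On 1428361_x_at the erythroid signals were 25546, 26325, 36624 and 16039, and the epithelial ones 14957, 14433, 10331 and 10874. These groups were also apart, though by a small gap, from 14957 up to 16039, and the log2 difference was 0.84 ± 0.14 (limma adjusted p = 0.00398). On 1452757_s_at the erythroid signals were 24957, 28191, 33307 and 14214, and the epithelial ones 17276, 14338, 11501 and 10590. Here the groups overlapped, because the erythroid capture of pair 4 lay below the epithelial captures of pairs 1 and 2, while each pair rose; the log2 difference was 0.68 ± 0.11 (limma adjusted p = 0.00353). Both lost their calls with arrays centred on their medians and with no variance trend. The highest limma adjusted p over their 15 alternatives was 0.0839 for the first and 0.11 for the second.

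The probe sets annotated to a single adult alpha gene were dim. That of Hba-a1, 1453574_at, read 3.3 to 49.1 in the erythroid and 11.7 to 90.6 in the epithelial captures, above background on 1 of 8 arrays. That of Hba-a2, 1427219_at, read 3.6 to 35.8 and 4.49 to 34.8, above background on 0 of 8. Neither was tested, and neither gives a level for its gene here, so no value separates the adult alpha genes.

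The embryonic beta-like globin Hbb-bh1 was measured by 3 probe sets. The brightest, 1437990_x_at, read 39712, 42134, 56375 and 21386 in the erythroid captures and 42436, 37646, 43815 and 23031 in the epithelial ones. The epithelial signal was thus the higher of the 2 in pairs 1 and 4 and the lower in pairs 2 and 3. Its log2 difference was -0.11 ± 0.07 after quantile normalisation (95% interval -0.27 to 0.05, limma adjusted p = 0.348) and 0.08 ± 0.13 with the deposited scaling (-0.20 to 0.36). The 1437810_a_at probe set gave -0.01 ± 0.07 (-0.17 to 0.16, adjusted p = 0.975) and 0.12 ± 0.12 with the deposited scaling (-0.16 to 0.39). The sign of both thus turns with the scaling.

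The third Hbb-bh1 probe set, 1450736_a_at, read 24427, 27099, 31494 and 12876 in the erythroid captures and 26158, 18109, 18836 and 10793 in the epithelial ones. Its erythroid signal was higher in pairs 2, 3 and 4 and lower in pair 1. The log2 difference was 0.20 ± 0.09 (95% interval 0.00 to 0.40, limma adjusted p = 0.167) and 0.37 ± 0.15 with the deposited scaling. No probe set of Hbb-bh1 was called in any of 15 alternatives.

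Hbb-y, which encodes the embryonic chain epsilon-y, also had 3 probe sets. On 1436717_x_at the erythroid captures read 41636, 44325, 38335 and 16575, and the epithelial captures 38952, 35654, 30611 and 14853. On 1436823_x_at they read 43096, 40461, 38595 and 15839 against 37806, 36270, 29417 and 14862. Each of these 8 deposited pairs of values was higher on the erythroid side, by ratios of 1.07 to 1.31, while the groups overlapped. Both captures of pair 4 were low, and on 1436717_x_at the erythroid value of pair 3 also lay below the epithelial value of pair 1. After quantile normalisation not every pair rose: 1436717_x_at was at 0 in pair 3 and 1436823_x_at at -0.23 in pair 2. The log2 differences were 0.07 ± 0.07 (95% interval -0.09 to 0.22, limma adjusted p = 0.561) and 0.03 ± 0.09 (-0.16 to 0.22, 0.851). With the deposited scaling they were 0.22 ± 0.12 (-0.04 to 0.48) and 0.21 ± 0.12 (-0.06 to 0.47), and neither passed in any of 15 alternatives.

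The third Hbb-y probe set, 1450621_a_at, gave a larger difference. It read 26141, 28816, 39219 and 14929 in the erythroid captures and 21307, 20033, 14873 and 10454 in the epithelial ones. The erythroid value was higher in each pair, most of all in pair 3, at 2.64 times. The log2 difference was 0.54 ± 0.13 (SE, n = 4 pairs; limma adjusted p = 0.0238). The call held in 7 of 15 alternatives, over which the highest adjusted p was 0.35. It ended with arrays centred on their medians or their 75th percentile, with no filter, no variance trend or no pair term, without replicate 3, without replicate 4 and in pairs 1 and 2 alone, where the difference was 0.22.

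**Figure D2:**
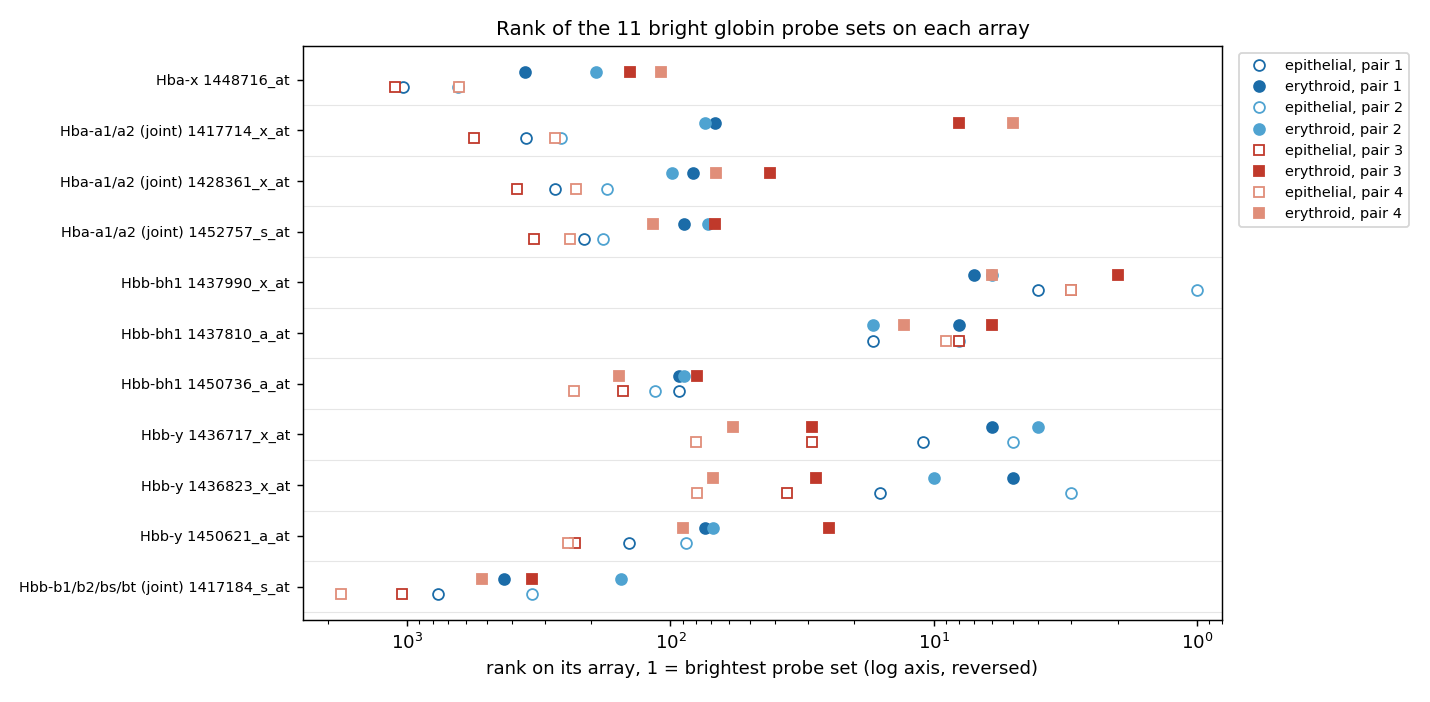
Rank of each of the 11 bright globin probe sets on each array, with 1 the brightest of 22626 (log axis, reversed); filled symbols are erythroid captures, open ones epithelial, and colours are pairs. Hba-x ranked 109 to 357 in erythroid and 637 to 1111 in epithelial captures, while the brightest Hbb-bh1 probe set ranked 2 to 7 and 1 to 4.

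The position of these probe sets at the top of the array bears on their values. Quantile normalisation gives the brightest features of every array the same values, so a probe set at ranks 1 to 17 in both captures, as 2 of the 3 for Hbb-bh1 were, can hardly differ after it. The deposited scaling sets no such limit, and the intervals under it are the wider ones given above. In pair 4 the highest signals were 24645 and 25681, and on the other 6 arrays 37646 to 58408, and the low signals of Hbb-bh1 and Hbb-y in pair 4 go with this lower top of both its arrays. Whether the brightest features were at the upper end of the scanner's range was not tested.

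Adult beta globin was measured jointly by 1417184_s_at, annotated to Hbb-bt, Hbb-bs, Hbb-b2 and Hbb-b1. It read 9666, 21513, 11911 and 6739 in the erythroid captures and 6010, 10374, 3975 and 2271 in the epithelial ones. Pair 2 was the highest in both captures, and its epithelial value lay above the erythroid values of pairs 1 and 4, so the groups overlapped while each pair rose, by 1.61 to 3.00 times. The log2 difference was 1.20 ± 0.19 (SE, n = 4 pairs; limma adjusted p = 0.00345). The call ended with no variance trend and without the pair term, and the highest adjusted p over 15 alternatives was 0.153.

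Hbb-b2, the minor adult beta gene of its arrangement, had 2 probe sets that disagreed. The 1427866_x_at probe set, of a kind that can also bind related transcripts, read 466, 2826, 655 and 423 in the erythroid captures and 139, 340, 43.7 and 10.7 in the epithelial ones. The groups were apart, and the log2 difference of 3.04 ± 0.37 (limma adjusted p = 0.00133) was the largest of the members; the epithelial signal was above background on 2 of 4 arrays, so the size is uncertain. The call was lost without the pair term (adjusted p = 0.0621, the highest of 14 alternatives). The 1427865_at probe set, with 120, 126, 76.6 and 161 in the erythroid and 98.7, 81.9, 110 and 36.7 in the epithelial captures, was above background on 3 of 4 and 2 of 4 arrays. Its difference was 0.35 ± 0.49 (95% interval -0.74 to 1.43, adjusted p = 0.683).

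**Figure D3:**
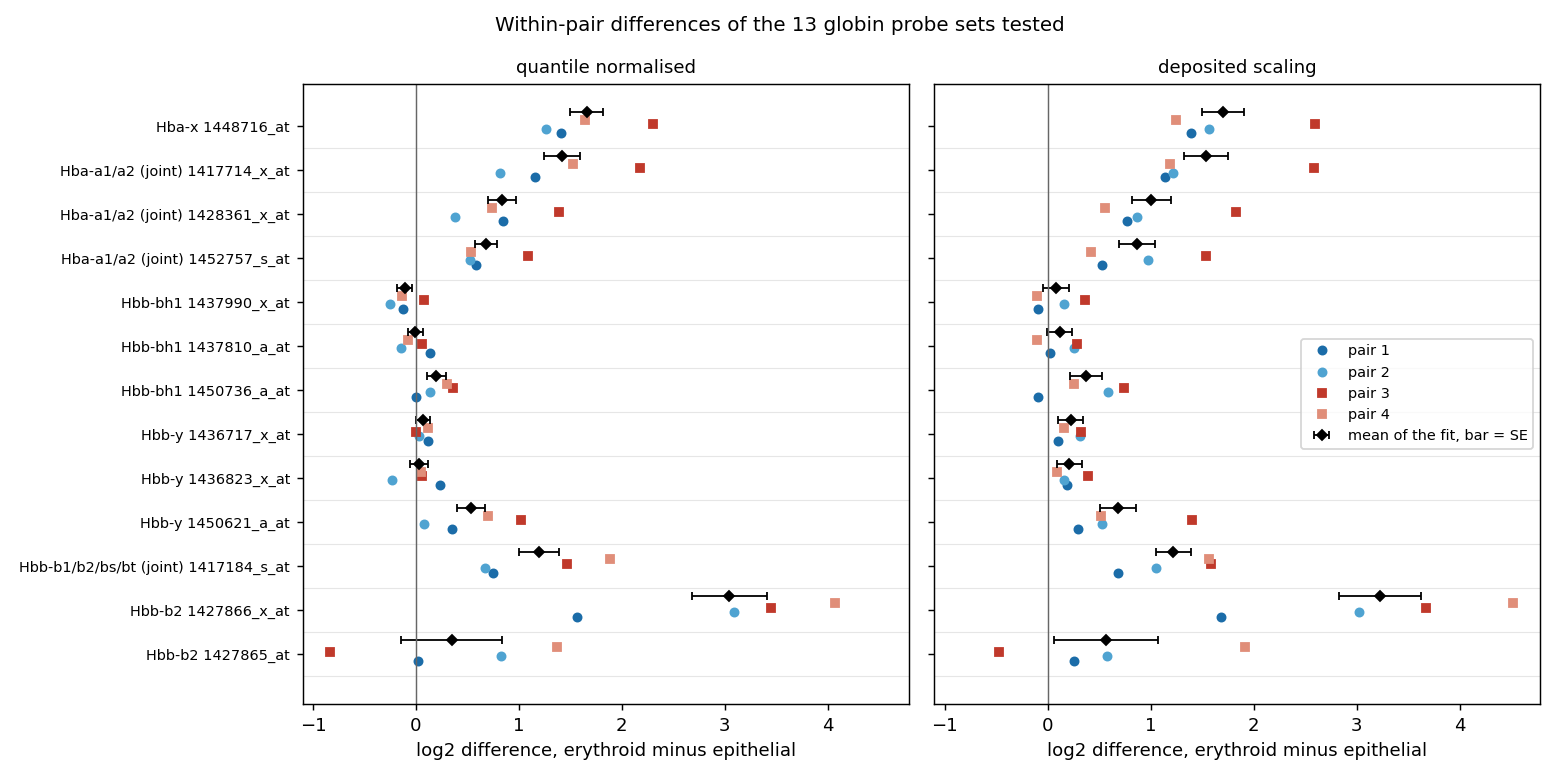
Log2 difference, erythroid minus epithelial, of the 13 globin probe sets tested, after quantile normalisation (left) and with the deposited scaling (right); coloured points are the 4 pairs, diamonds the mean of the fit, and bars its SE. Hba-x lies at 1.66 and 1.70 in the 2 panels, while the probe sets of Hbb-bh1 lie between -0.11 and 0.20 on the left and between 0.08 and 0.37 on the right.

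Because probe sets on 1 array share its scale, the alpha-like and beta-like embryonic chains can be set against each other as changes, though not as levels. Their probe sets stood at different ranks, however, Hba-x at 109 to 1111 over both captures and the brightest Hbb-bh1 probe set at 1 to 7. The part of this position in the gaps below was not tested. The log2 difference of Hba-x was larger than that of every Hbb-bh1 and Hbb-y probe set in 4 of 4 pairs. The gap was 1.77 ± 0.33 (SD, n = 4 pairs) against the brightest Hbb-bh1 probe set and 1.59 ± 0.49 against Hbb-y 1436717_x_at. Against the third Hbb-y probe set, 1450621_a_at, it was 1.12 ± 0.15. All 6 such gaps lay between 1.12 and 1.77 after quantile normalisation and between 1.02 and 1.62 with the deposited scaling. The two-sided exact sign-flip test gave for each the smallest p that 4 pairs allow, which is 0.163 after adjustment over the 13 comparisons made, so this test cannot pass the threshold with 4 pairs. No other test was made of these gaps.

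Probe sets of 1 gene differed among themselves in the same way. The Hbb-y probe set 1450621_a_at rose more than 1436823_x_at in 4 of 4 pairs, by 0.51 ± 0.37 (SD, n = 4 pairs), and more than 1436717_x_at in 4 of 4, by 0.47 ± 0.43 (exact sign-flip test, adjusted p = 0.163 for both). Of the Hbb-bh1 probe sets, 1450736_a_at exceeded the brightest by 0.31 ± 0.14 in 4 of 4 pairs (exact test, adjusted p = 0.163). Between the 2 bright Hbb-y probe sets the gap was -0.04 ± 0.17, of either sign among the pairs.

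Pairs 1 and 2 and pairs 3 and 4 differ in a sign of RNA quality, so the members were also read in each set. The 3′ to 5′ signal ratio of the Gapdh control ran from 38.7 to 44.4 in pairs 1 and 2 and only from 7.0 to 17.4 in the others. The log2 difference of Hba-x was 1.34 in the first set (pairs 1 and 2) but 1.98 in the second (pairs 3 and 4), a gap that did not pass the interaction test (limma adjusted p = 0.209). The 1417714_x_at probe set of adult alpha globin was at 0.99 and 1.85 (adjusted p = 0.042), and the joint adult beta probe set at 0.71 and 1.68 (0.0368). These 2 of 13 members passed, where 1.84% of all probe sets tested did and 1.22% were larger in pairs 3 and 4. With the deposited scaling the adjusted p of the 2 was 0.424 and 0.309, and 0 members passed. The marker lists of cell types moved with the same sets of pairs: the median difference of the erythroid markers was 1.27 in the first set and 3.23 in the second, that of the mesenchyme markers 0.34 and 2.53, that of the megakaryocyte markers 0.81 and 2.48, and that of the endoderm markers -1.03 and -1.85. The part of RNA quality and of the captured cells in these values was not tested.

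The captures were checked against markers of the cells they are named for, where 6.02% of all genes tested rose and 8.87% fell. Of 11 erythroid marker genes tested, 10 rose and 0 fell in the erythroid captures, at a median of 2.12; the exception was Epor, at 1.46 ± 0.58 (limma adjusted p = 0.117). Their summed signal was 25536 to 48778 in the erythroid and 4078 to 11811 in the epithelial captures, where 9 of 11 were above background on all 4 arrays. Of 20 markers of the endoderm epithelium, 17 fell and 0 rose, with sums of 90440 to 121918 in the erythroid and 146018 to 243364 in the epithelial captures, and 19 of 20 were above background on all 4 erythroid arrays. The exceptions were Krt18 at -0.46 ± 0.19, Ttr at -0.20 ± 0.07 and Afp at -0.16 ± 0.09 (limma adjusted p = 0.132, 0.0829 and 0.249). The probe sets used for Ttr and Afp were the brightest of this list, and with the deposited scaling these genes were at -0.03 and 0.02. Averaged over all tested probe sets of the gene, 3 for Ttr and 4 for Afp, they were at -0.70 and -0.43 (limma adjusted p = 0.00319 and 0.0264). The part of brightness in these values was not tested. No marker of either list was listed at 0. Both captures thus gave signal for both sets of markers beside their globin signal, and their part in the globin values was not tested. Of 9 mesenchyme markers tested, 6 rose and 0 fell (sums of 28395 to 51615 and 6833 to 25628); of 6 endothelial markers 1 rose, of 5 megakaryocyte markers 2 and of 4 macrophage markers 0, and 0 of these fell. The median difference of the mesenchyme markers, 0.34 in the first 2 pairs, reached 2.53 in the last 2.

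In a capture of several cells, a lower signal of a gene can come from fewer cells of a type or from less RNA per cell, and these cannot be told apart. Set beside the globins, Klf1 was at 1271, 1325, 3066 and 4622 in the erythroid and 298, 465, 387 and 502 in the epithelial captures, 2.49 ± 0.30 apart on the log2 scale (limma adjusted p = 0.00133). The anion exchanger Slc4a1 read 11972, 10836, 11558 and 8042 against 4222, 4252, 848 and 1375, with a log2 difference of 2.32 ± 0.34 (limma adjusted p = 0.00266). Both differences were larger than that of Hba-x in the same fit over 4 pairs. In pairs 1 and 2 Klf1 was at 1.74, Slc4a1 at 1.33 and Hba-x at 1.34. In pairs 3 and 4 they were at 3.23, 3.31 and 1.98 (limma interaction adjusted p = 0.0474, 0.00141 and 0.209). The differences between these genes were not tested.

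Globin genes are switched on by red cell transcription factors and repressed out of their stage by others, and 44 such regulators were listed. Of 32 tested, 9 rose and 0 fell in the erythroid captures, where 6.02% of all 7191 genes tested rose and 8.87% fell; the median was 0.15 and that of all genes was -0.01. Beside Klf1, those that rose included 3 members of the complex that loops the locus control region to the promoters: Tal1 at 2.12 ± 0.39, Gata1 at 2.05 ± 0.32 and Lmo2 at 1.85 ± 0.33 (limma adjusted p = 0.00618, 0.00329 and 0.00518). Tcf3, also of this complex, was at 0.85 ± 0.42 (limma adjusted p = 0.203), and Ldb1, another member, was too dim to be tested. The calls of Tal1 and Lmo2 were lost with no variance trend. Klf1, Tal1 and Gata1 are also on the erythroid marker list, so their rise is counted in both lists. Zfpm1, the partner of Gata1, was higher by 1.37 ± 0.29. Myb, known for definitive red cell precursors, was higher by 1.81 ± 0.38, with the epithelial signal above background on 1 of 4 arrays. Eif2ak1, the kinase that stops globin translation when heme is short, was higher by 0.99 ± 0.24. The other 2 were Hmga2 at 1.19 ± 0.30 and the histone deacetylase Hdac2 at 0.72 ± 0.20. The calls of Myb, Zfpm1, Hmga2, Eif2ak1 and Hdac2 were each lost in 3 to 8 alternatives. The count was 5 with no variance trend and 4 without the pair term, and 5 and 4 without replicates 3 and 4.

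Other regulators on the list did not pass or were too dim to be tested. Sox6, known to silence embryonic globin in later red cells, was at 0.18 ± 0.31 (limma adjusted p = 0.739), the DNA methyltransferase Dnmt1 at 0.53 ± 0.27 (0.216), Mbd2 at 0.51 ± 0.27 (0.227) and the demethylase Kdm1a at 0.07 ± 0.21 (0.867). Bcl11a was not tested; its signal was 20.2, 113, 119 and 92.5 in the erythroid and 33.2, 21.0, 18.1 and 13.4 in the epithelial captures, above background on 3 of 4 and 0 of 4 arrays. Ldb1, Zbtb7a, Ikzf1, Nr2c1 and Nr2c2 were also too dim. The RNA-binding proteins Igf2bp1 and Igf2bp3, which are typical of embryonic cells, were at -0.72 ± 0.30 and -0.33 ± 0.18 (0.142 and 0.247).

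Globin chains need heme to fold, and 30 genes that supply heme, break it down, export it or protect globin were listed. Of 23 tested, 14 rose and 0 fell, at a median of 1.05, where 6.02% of all genes tested rose, 8.87% fell and the median was -0.01. Enzymes of the heme pathway among them were Alas2, the red cell enzyme of the first step, at 1.98 ± 0.52, Alad at 1.35 ± 0.20, Uros at 1.64 ± 0.26, Urod at 1.73 ± 0.27, Cpox at 1.05 ± 0.21 and Fech, which inserts the iron, at 1.27 ± 0.19 (limma adjusted p = 0.00268 to 0.0301). The size for Alas2 depended on the set of pairs, with 0.50 in the first 2 pairs but 3.47 in the last 2 (limma interaction adjusted p = 0.00256). Its value was 1.24 without replicate 3, and its call was lost in 5 alternatives, among them those without replicate 3 and without replicate 4. Alas1, the form used outside red cells, was at -0.79 ± 0.30 (adjusted p = 0.11). The iron importers Slc25a37 and Tfrc were higher by 2.04 ± 0.31 and 1.59 ± 0.28, and Prdx2, a peroxidase abundant in red cells, by 0.89 ± 0.11. The size for Slc25a37 also changed with the set of pairs, from 1.21 to 2.86 (limma interaction adjusted p = 0.0133). Slc11a2 and Slc25a38, also tested, were at 0.18 ± 0.48 and -0.05 ± 0.23 (limma adjusted p = 0.839 and 0.921). The largest rise of this list was that of Blvrb, at 2.24 ± 0.38 (limma adjusted p = 0.00412). From the first set of pairs to the second it grew from 1.20 to 3.28 (limma interaction adjusted p = 0.00823). The remaining genes that rose were Tfr2 at 2.05 ± 0.43, Fam210b at 1.63 ± 0.24, Tmem14c at 1.49 ± 0.16 and Abcb10 at 0.89 ± 0.25. The calls of Tfr2 and Abcb10 were lost in 4 and 6 alternatives. Alas2 and Tfrc are also on the erythroid marker list. The chaperones Hspa8 and Hspa4 were at -0.13 ± 0.09 and 0.10 ± 0.18 (0.368 and 0.766). The count of 14 was 7 with no variance trend and 9 without the pair term.

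**Figure D4:**
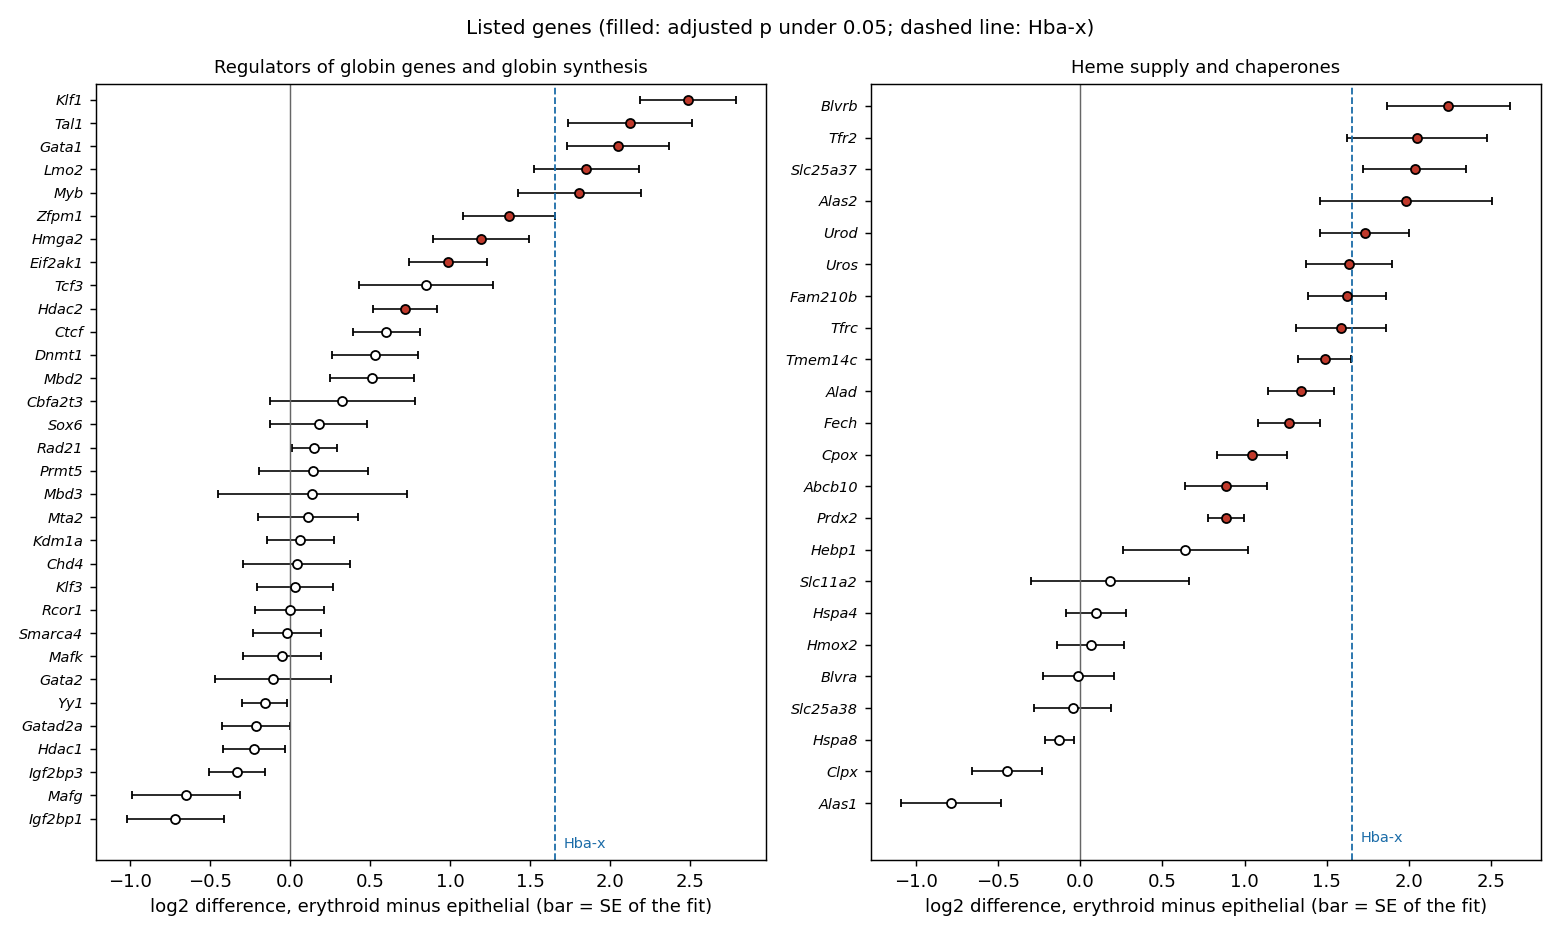
Log2 difference, erythroid minus epithelial, of genes tested: 32 regulators of globin genes (left) and 23 genes of the heme and chaperone list (right). Points are fitted means, bars their SE, filled points have an adjusted p under 0.05, and the dashed line marks Hba-x. Of the regulators 9 are filled and of the heme list 14, from 0.72 for Hdac2 to 2.49 for Klf1, with Hba-x at 1.66.

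Genes beside the alpha globin locus were read because its main enhancers lie within one of them, Nprl3. Nprl3, with 0 coding genes between it and Hba-x in RefSeq, was above background on 3 of 4 erythroid and 2 of 4 epithelial arrays, and its difference was 0.20 ± 0.47 (limma adjusted p = 0.816), and Mpg, the next one, was at 0.24 ± 0.27 (0.594). Rhbdf1 was at 0.48 ± 0.31 (0.334). Snrnp25, a protein of the minor spliceosome with 3 coding genes between it and Hba-x, rose by 1.04 ± 0.20 (0.00716), with mean signals of 2232 and 1099; the call was lost with no variance trend and without replicate 4. The nearest listed gene tested beside the beta locus was Trim6, with 22 coding genes between it and Hbb-y; it fell by 1.06 (SE 0.31, adjusted p = 0.0471), a call that 7 alternatives ended. The other listed gene tested there, Rrm1, a subunit of ribonucleotide reductase with 81 coding genes between, rose by 0.94 ± 0.23 (adjusted p = 0.0206), a call that 6 alternatives ended.

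Genes whose 4 within-pair differences came nearest to those of Hba-x were found by the root mean square difference over the pairs, on the log2 scale. They were Asb17 (0.19), the lysosomal membrane gene Laptm5 of blood cells (0.23), the phagocyte oxidase gene Ncf4 (0.24), the heme enzyme Urod (0.24) and the kinesin Kif2a (0.25), with fitted differences of 1.44 to 1.73. For the brightest Hbb-bh1 probe set the nearest were Mapkapk5, Ten1, Rasgrp2, Smndc1 and Psmd5 (0.05 to 0.07), and for that of Hbb-y they were Zfp330, Tcof1, Rps28, Tes3-ps and Dynll1 (0.02 to 0.06). All 10 of these had differences near 0, between -0.13 and 0.11, like the probe sets they were matched to.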

How the data were processed

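Expression was measured in 8 laser-captured samples, 4 pairs of erythroid and epithelial captures, on 1 array each. The authors deposited a linear intensity, the MAS5 signal, for each probe set and array. Tools named in the submitters' processing notes are GCOS, MAS5 and affy, with no version. In the deposited table each array's mean after trimming 2% at each end is 500. Of 22690 probe sets 64 were controls and were left out. Genes were named from GEO's platform annotation, with symbols of 20351 probe sets updated through gene identifiers in RefSeq.

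To each value 8.14 was added, the 10th percentile of all deposited values, before log2 was taken and arrays were quantile normalised, since array medians spanned 0.59. The fit was limma 3.58.1 (lmFit, eBayes with a variance trend) in R 4.3.3, with terms for pair and cell type, two-sided, and was tested on simulated data. The pairs come from the labels' protocols; after removal of group means, both captures of a pair correlated at 0.44, 0.34, 0.31 and 0.54 in pairs 1 to 4. Each listed gene was represented by the brightest tested probe set among those annotated to 1 gene. Alternatives changed scaling, offset (1 or 32), filter (none, or the median reached on all 8 arrays), variance trend, pair term, and the pairs used. Members, lists and tests were chosen with earlier results of these data known. Named were all members, some genes of the lists, with and without calls, and the 5 genes nearest to each of 3 globins. Not every marker gene with a call was named. Of the list of genes beside the loci, Fam234a, Luc7l and Dub1 are not placed beside their globin locus by the RefSeq table and are not reported. The number of arrays limits the precision. The limma p-values rest on the spread between these pooled samples, drawn towards the variance trend over all probe sets tested.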

Additional observations from a re-analysis of the deposited data

Results flagged for a closer look

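In the erythroid group, 1 of the 4 captures stood far from the other 3 for 2 probe sets of Hbb-y: that of pair 4, at 16575 on 1436717_x_at and 15839 on 1436823_x_at. Its highest signal of any probe set was also the lowest of the 8 arrays, at 24645. The epithelial capture of pair 4 was likewise the lowest of its group on both probe sets, at 14853 and 14862. Of 30 groups of 4 examined in this way 2 were found, near the rate of about 1 in 20 that chance alone gives. These 2 are probe sets of 1 gene on 1 array and so are not independent.

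The difference between captures depended on the set of pairs for 2 probe sets. The 1417714_x_at probe set of Hba-a1 and Hba-a2 differed by 0.86 more in pairs 3 and 4 than in pairs 1 and 2 on the log2 scale, and the joint adult beta probe set by 0.97 more (limma adjusted p = 0.042 and 0.0368). Both calls were absent with the deposited scaling.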

How the results depend on the processing

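Of 193 values of the 13 members tested, each under an alternative, 186 kept their sign and 15 lost their call. The sign turned for Hbb-bh1 1437990_x_at under the deposited scaling (0.081) and under centring on the 75th percentile (0.047), and for Hbb-bh1 1437810_a_at under these (0.115 and 0.081), and with 1 pair left out, which gave -0.054 (without replicate 1) to 0.040 (without replicate 2), and 0.019 without replicate 4. It also turned for Hbb-y 1436823_x_at from -0.039 without replicate 1 to 0.118 without replicate 2, and for the gap between both bright Hbb-y probe sets, from -0.090 without replicate 1 to 0.038 without replicate 2. The cause was not tested. Of the members, 7 were higher, and 4 with median centring, 3 with no variance trend, 4 with no replicate block, the fit without the pairing, and 6 to 7 with 1 pair left out. The 2 members that depended on the set of pairs were 0 with the deposited scaling, with median centring, with the 75th percentile, with no filter and with no variance trend, and 1 with an offset of 1.

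Over all probe sets, 709 were higher and 881 lower. The counts were 455 higher with median centring (1097 lower), 179 and 339 with no variance trend, 160 and 285 with no replicate block, 202 to 690 and 332 to 829 with 1 pair left out (both lowest without replicate 4), 543 lower in pairs 1 and 2 only, and 1402 and 1457 in pairs 3 and 4 only. With the deposited scaling they were 770 and 847. Median centring moved the median of all probe sets from 0.02 to -0.11. Of the globin regulators 9 rose, and 5 with no variance trend, 4 with no replicate block and 4 to 8 with 1 pair left out; 0 fell, but 1 in pairs 3 and 4 only. Of the heme list 14 rose, and 7 with no variance trend, 9 with no replicate block and 10 to 14 with 1 pair left out; 0 fell, but 1 in pairs 3 and 4 only and 0 to 1 with 1 pair left out. The exact sign-flip test of 4 pairs can call 0 of the 13 within-array gaps in any scaling.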

Other observations

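Other genes of the globin fold gave no level in these captures. Myoglobin (Mb), cytoglobin (Cygb) and neuroglobin (Ngb) were too dim to be tested. Mb was at 11.5 to 79.9 in the erythroid and 8.8 to 91.0 in the epithelial captures, and Cygb at 8.4 to 88.9 and 7.4 to 28.1. Ngb was at 4.2 to 97.5 and 14.3 to 96.8, above background on 0 of 4 erythroid and 2 of 4 epithelial arrays. Nfe2, a red cell factor that binds the locus control region of the beta globins, was not tested either: it read 33.2 and 70.7 in the erythroid captures of pairs 1 and 2 and 283 and 307 in those of pairs 3 and 4, with only the last 2 of these 4 above background. In the epithelial captures it read 43.2 to 77.9, above background on 1 of 4 arrays.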
